A study of Mus musculus with 18 samples.

Results

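The events described here are the single cassette exons of the NOVA2-dependent splicing table of E18.5 mouse cortex, that is, exons that are either kept in the mRNA or skipped whole between a pair of flanking exons. They were taken as every event that the authors typed as a single cassette exon, which gave 941 of the 1991 events of the table. Events that share the same start of the upstream exon, end of the downstream exon and strand were collapsed into 642 spans, of 880 spans in the whole table. The spans lay in 464 genes named by symbol, and 2 further spans carried no symbol. A span was listed by 1 event in 433 cases and by up to 7 events in the others, and its value is the mean of its events.

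All mice were on the CD1 background and were taken at E18.5, with 3 mice for each genotype and region. Cortex RNA came from each knockout, Nova2-/- or Nova1-/-, and from wild-type mice of the same litters, and RNA of the midbrain with the hindbrain from wild-type and Nova1-/- mice. In the Nova2 null allele a targeting cassette replaced the first exon, and both alleles are constitutive, so every cell of the animal carries them. Each listed event had an absolute ΔI of at least 0.1 and an FDR below 0.1 in Nova2-/- cortex and a NOVA motif within a cluster of NOVA2 CLIP tags, so the size of ΔI in that comparison and the presence of a motif belong to the listing, whereas its sign, the place of the motif, the exon's length and the values in Nova1-/- mice do not.

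NOVA1 and NOVA2 are neuronal RNA-binding proteins whose KH domains contact short YCAY elements in pre-mRNA, where Y stands for C or U. Splicing factors of this kind can favour an exon when bound at one place and disfavour it when bound at another, and exons of a few codons, called microexons, are a common target of neuronal splicing factors. A cassette exon whose length is a multiple of 3 can be added to or left out of a reading frame without shifting it.

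ΔI is the inclusion of the exon in wild-type minus its inclusion in the knockout, on a scale from -1 to 1. A ΔI above 0 therefore means less inclusion in the knockout, and a ΔI below 0 means more. The table holds 1 pooled ΔI for each event and comparison, without replicates and without read counts, so no SD or n stands beside the values. A span is called in a Nova1-/- comparison where any of its events had an absolute ΔI of at least 0.1 and an FDR below 0.1, so the mean of a called span can lie under that limit.

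The libraries held 16518172 to 31362018 counts each. Nova2 transcripts in Nova2-/- cortex were at 17.0, 17.96 and 21.5 CPM (counts scaled to a common library size), below the 31.04, 31.5 and 40.9 CPM of the wild-type littermates but not absent. The allele replaces only the first exon, and the counts are given by gene, not by exon. Nova1 was at 0.0341 to 0.211 CPM in Nova1-/- cortex, against 41.5 to 75.8 CPM in its littermates. The 6 markers of cortex summed to 902 to 1053 CPM in the wild-type littermates and to 903 to 1070 CPM in Nova2-/- cortex, and the 6 markers of caudal brain summed to at most 1.06 CPM in any of these samples. The 8 meningeal markers summed to 183 to 466 CPM in the wild-type Nova2 littermates and to 741 to 945 CPM in Nova2-/- cortex, with 3 of the 8 past an FDR of 0.05. The 4 general neuron markers summed to 3874 to 4133 CPM in the wild-type littermates and to 3207 to 3509 CPM in Nova2-/- cortex. Their median log2 fold change was -0.20, and none of the 4 passed an FDR of 0.05. In the Nova1 litters the meningeal sums were 672 to 866 CPM in wild-type and 586 to 703 CPM in Nova1-/- cortex. The part of the meningeal and neuronal differences in the ΔI values was not tested.

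Sequences are shown first for the 6 exons of at most 30 nt with the largest absolute ΔI in Nova2-/- cortex, 1 for each gene, because short exons with their flanks let the place of the motifs be read directly. They were read from the mm9 assembly on the transcript strand, 5′ to 3′. The exon is followed by the 100 bases of intron on the downstream side where ΔI was above 0 and on the upstream side where ΔI was below 0, and so the flank shown was chosen by the direction. The capitals mark the motif, which is CCAC or CCAT or, when T is its first letter, TCAC or TCAT. The Adgrl2, Synj1 and Kcnh7 exons had less inclusion in Nova2-/- cortex.
Adgrl2 exon (chr3:148490176-148490202, minus strand): ctatgaagataataagCCATttatcaa
Adgrl2, 100 bases of the downstream intron (chr3:148490076-148490175, minus strand): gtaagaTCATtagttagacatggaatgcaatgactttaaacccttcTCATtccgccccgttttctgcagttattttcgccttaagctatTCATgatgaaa
Synj1 exon (chr16:90940718-90940741, minus strand): caggagcaaccaacagggtaacag
Synj1, 100 bases of the downstream intron (chr16:90940618-90940717, minus strand): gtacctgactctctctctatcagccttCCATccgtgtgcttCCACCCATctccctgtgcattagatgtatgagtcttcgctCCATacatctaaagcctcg
Kcnh7 exon (chr2:62683811-62683831, minus strand): acaatggtcgaaatgtcaaag
Kcnh7, 100 bases of the downstream intron (chr2:62683711-62683810, minus strand): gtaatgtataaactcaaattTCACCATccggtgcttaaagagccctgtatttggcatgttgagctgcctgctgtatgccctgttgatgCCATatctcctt

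The Slc8a1, Ptprz1 and Ppp3cb microexons had more inclusion in Nova2-/- cortex, and their upstream introns are shown. In 200 nt on each side, Adgrl2 had 6 motifs downstream and 0 upstream, Synj1 8 and 4, and Kcnh7 5 and 1. Ptprz1 had 2 downstream and 5 upstream and Ppp3cb 3 and 9, whereas Slc8a1 had 7 downstream and 3 upstream, the opposite of the other 2 microexons that gained inclusion.
Slc8a1 exon (chr17:81841543-81841563, minus strand): ccctgttgttgaatgagcttg
Slc8a1, 100 bases of the upstream intron (chr17:81841564-81841663, minus strand): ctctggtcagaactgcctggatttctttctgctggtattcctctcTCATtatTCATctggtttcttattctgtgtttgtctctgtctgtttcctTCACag
Ptprz1 exon (chr6:22974714-22974734, plus strand): acactgaaagagttttaccag
Ptprz1, 100 bases of the upstream intron (chr6:22974614-22974713, plus strand): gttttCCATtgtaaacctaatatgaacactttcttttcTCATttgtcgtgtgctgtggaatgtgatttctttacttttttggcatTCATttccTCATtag
Ppp3cb exon (chr14:21330696-21330722, minus strand): aacggcTCATatatggcaataaaaaag
Ppp3cb, 100 bases of the upstream intron (chr14:21330723-21330822, minus strand): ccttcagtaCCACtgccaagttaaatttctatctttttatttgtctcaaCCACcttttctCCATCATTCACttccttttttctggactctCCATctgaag

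The largest number of motifs in 200 nt of downstream intron stood after an 18-nt exon of Ptprf, which encodes the receptor phosphatase LAR. It is shown because 19 motifs stood in those 200 nt, 11 of them in the first 100.
Ptprf exon (chr4:117924681-117924698, minus strand): gtggtTCACcaatcagag
Ptprf, 100 bases of the downstream intron (chr4:117924581-117924680, minus strand): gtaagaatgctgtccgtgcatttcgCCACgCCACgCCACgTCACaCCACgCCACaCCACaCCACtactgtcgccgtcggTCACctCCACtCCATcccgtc

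The flanks of longer exons are shown for the largest changes in each direction among placed exons over 30 nt that were not annotated as untranslated in whole or in part. Cyb5r4, Nrcam and Jade3 lost inclusion in Nova2-/- cortex, and Lmtk3 and Ank2 gained it. Cyb5r4 had the largest ΔI of all and only 1 motif in these 100 bases.
Cyb5r4, 100 bases of the downstream intron (chr9:86952130-86952229, plus strand): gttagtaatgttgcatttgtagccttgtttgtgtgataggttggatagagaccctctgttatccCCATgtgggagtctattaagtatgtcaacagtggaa
Nrcam, 100 bases of the downstream intron (chr12:45646423-45646522, plus strand): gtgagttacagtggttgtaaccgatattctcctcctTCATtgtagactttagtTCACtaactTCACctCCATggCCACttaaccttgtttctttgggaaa
Jade3, 100 bases of the downstream intron (chrX:20064549-20064648, plus strand): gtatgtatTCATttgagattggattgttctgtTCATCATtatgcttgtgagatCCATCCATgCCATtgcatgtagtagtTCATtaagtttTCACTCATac
Lmtk3, 100 bases of the upstream intron (chr7:53042916-53043015, plus strand): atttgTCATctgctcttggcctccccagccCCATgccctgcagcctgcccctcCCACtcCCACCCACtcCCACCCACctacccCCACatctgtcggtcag
Lmtk3 exon (chr7:53043016-53043124, plus strand): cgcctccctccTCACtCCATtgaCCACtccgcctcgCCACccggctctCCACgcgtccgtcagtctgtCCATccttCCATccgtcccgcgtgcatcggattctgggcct
Ank2, 100 bases of the upstream intron (chr3:126631766-126631865, minus strand): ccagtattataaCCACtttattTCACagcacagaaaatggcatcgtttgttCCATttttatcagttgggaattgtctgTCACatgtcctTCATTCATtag

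The spans were almost evenly divided between the directions in Nova2-/- cortex. ΔI was above 0 in 319 spans and below 0 in 323, so 49.7% of the spans lost inclusion in the knockout. The median absolute ΔI was 0.210, with quartiles of 0.146 and 0.332, and the largest was 0.800. Since listing set the lower limit, the events just inside it were Casc4 at 0.1001 and Oprl1 at -0.1002, and events outside it were not analysed here. Of the 464 genes, 333 held 1 cassette span and 131 held several. Among those 131 genes, all spans were above 0 in 39, all were below 0 in 33, and 59 held spans of both signs. Spans of a gene can overlap or differ by only a few bases at an end, so several spans are not always several exons.

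The 10 spans with the largest loss of inclusion, at most 1 for each gene, reached from 0.780 to 0.614 (ΔI in Nova2-/- cortex). Cyb5r4, a cytochrome b5 reductase, had a 153-nt coding exon with a ΔI of 0.780. Mtcl1, a microtubule crosslinking protein, had a 57-nt exon at 0.774 and 9 motifs downstream. Jade3, a PHD-finger nuclear protein, had a span at 0.758, and its 125-nt exon was not in the annotation. Nrcam, an adhesion molecule of the L1 family, had a 57-nt coding exon at 0.746, with 8 motifs in 200 nt downstream and 1 upstream. Aff3, a nuclear transcription factor, followed at 0.700, Mctp1 at 0.696 and Ccdc64 at 0.647. Map7d2, a microtubule-associated protein, had a 99-nt exon at 0.643 with 13 motifs downstream. A 33-nt exon of Ptprf had a ΔI of 0.635, and Epb4.1, which links spectrin and actin to the membrane, had one of 0.614.

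The 10 spans with the largest gain of inclusion reached from -0.800 to -0.582. Lmtk3, a lemur tyrosine kinase, had a ΔI of -0.800 at a 109-nt exon that is annotated in non-coding transcripts only, with 10 motifs upstream, 7 inside and 1 downstream. Grik2, a kainate receptor subunit, had a span at -0.785. Ank2, ankyrin-B, which ties membrane proteins to spectrin, had a 183-nt coding exon at -0.698 with 10 motifs upstream and 7 downstream. Cacna1e, the pore subunit of the R-type calcium channel, was at -0.678, and Fam126a at -0.625. Erbb4, a neuregulin receptor, was at -0.618, the flippase Atp11b at -0.605, and the glycine receptor subunit Glra2 at -0.591. The chromatin remodelling subunits Smarcc2 and Ino80e were at -0.586 and -0.582.

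The same 20 spans had smaller absolute values in both Nova1-/- comparisons, as listing by the size of ΔI in Nova2-/- cortex favours. In Nova1-/- cortex their ΔI ran from -0.124 in Jade3 to 0.133 in Cacna1e, and none of the 20 was called. In Nova1-/- midbrain and hindbrain it ran from -0.161 in Grik2 to 0.144 in Epb4.1, and Map7d2, at 0.110, was the only one called. All 10 spans that lost inclusion in Nova2-/- cortex had a ΔI above 0 in Nova1-/- midbrain and hindbrain, and 8 of the 10 that gained it had one below 0, the exceptions being Cacna1e and Atp11b.

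**Figure D1:**
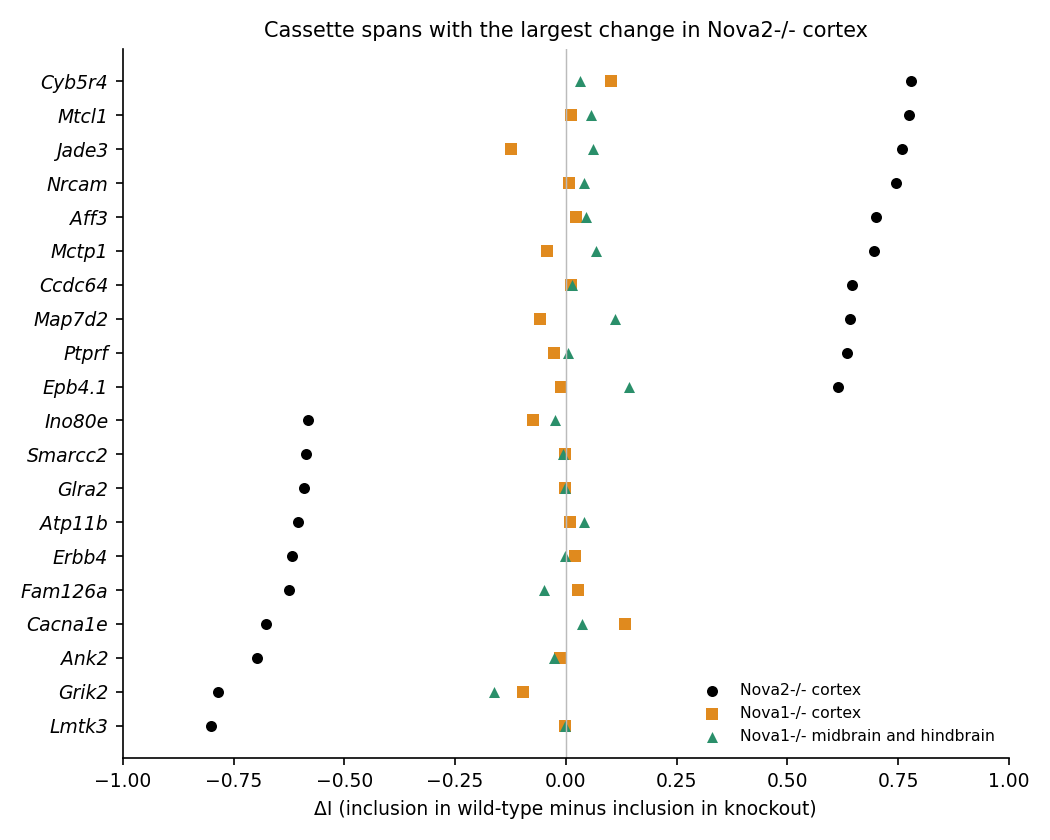
ΔI (x axis, inclusion in wild-type minus knockout) of the 10 cassette spans with the largest ΔI in each direction in Nova2-/- cortex, 1 row for each gene. Circles are Nova2-/- cortex, squares Nova1-/- cortex and triangles Nova1-/- midbrain and hindbrain. The circles lie beyond 0.58 on either side of 0 and the squares and triangles between -0.161 and 0.144.

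Several genes had spans that moved in opposite directions in Nova2-/- cortex. Grik2 had spans at -0.785, -0.462 and 0.414, which overlap and share a start or an end, so they may not be separate splicing choices. Sorbs2, an adaptor of the actin cytoskeleton, held 5 spans, of which 2 were below 0, at -0.576 and -0.562, and 3 above it, at 0.321, 0.571 and 0.606. Its span at 0.571 held the third longest placed exon, of 1581 nt, and the span at -0.576 held one of 84 nt. Ptprf held 4 spans, at 0.635, 0.445, -0.429 and -0.455. The 33-nt and 18-nt exons of Ptprf lost inclusion and its 306-nt exon gained it. Dlg3, a synaptic scaffold protein, had spans at -0.576, -0.265 and 0.423. Within a single span the events differed less, with a median range of 0.0474 over the 209 spans with several events. Of these spans, 48 had a range above 0.1, the widest was 0.654, and 1 held events of both signs.

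The genes were grouped in lists that were chosen with earlier results of these data known, so the counts describe the lists only. In axon guidance genes, 17 spans in 12 of the 86 listed genes were NOVA2-dependent cassette exons, 9 with a ΔI above 0 and 8 below. The median absolute ΔI of these spans was 0.199, beside 0.210 over all spans. Neo1, a receptor for netrin and repulsive guidance molecules, had a 159-nt coding exon at -0.560 that carried 13 motifs itself. Robo2, a receptor for Slit, had a 12-nt coding exon at -0.430 and a 126-nt exon at 0.169. Its ligand gene Slit2 had a 27-nt exon at 0.268, and the receptor gene Epha5 a 66-nt exon at 0.413. Ppp3cb, a catalytic subunit of calcineurin, had a span at -0.417 with a 27-nt exon that was not in the annotation. Arhgef12, a guanine nucleotide exchange factor gene, had a 57-nt exon at -0.194 with 10 motifs upstream, and the kinase gene Rock1 had a span at 0.298. Ablim1, which links guidance receptors to actin, had a span at -0.450. No single cassette span of Dcc was listed.

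The axon guidance spans had small values in Nova1-/- cortex, where their median absolute ΔI was 0.0235 and none was called. In Nova1-/- midbrain and hindbrain 4 of the 17 were called, beside 6.70% of all cassette spans and 6.59% of the spans of all events. They were Robo2 at -0.152, Neo1, whose mean of 3 events was -0.0854, and 2 overlapping spans of Sema6d at 0.126 and 0.138. The Sema6d spans share their start and end at almost the same place, so they may hold the same exon. The 12-nt Robo2 exon thus had values of -0.430 in Nova2-/- cortex, -0.0497 in Nova1-/- cortex and -0.152 in the Nova1-/- midbrain and hindbrain. The Neo1 exon had values of -0.560, 0.0235 and -0.0854, and the Slit2 exon 0.268, -0.0619 and -0.0179. The Epha5 exon was at 0.413, -0.00164 and -0.00706, so that both Nova1-/- values were near 0.

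Cell adhesion, ankyrin and spectrin genes contributed 52 spans in 28 genes, 31 above 0 and 21 below, with a median absolute ΔI of 0.289. Besides Nrcam, Ank2, Ptprf and Epb4.1, the list held Agrn, the gene of agrin, which organises receptors at synapses. A 24-nt exon of Agrn, averaged over the 4 events that hold it, had a ΔI of 0.330, and a 33-nt exon had 0.293. Genes of synapses, receptors and ion channels contributed 46 spans in 30 genes, 20 above 0 and 26 below, with a median absolute ΔI of 0.311. The 4 largest of these all gained inclusion and lay in Grik2, Cacna1e, Glra2 and Dlg3. Genes of the actin and microtubule cytoskeleton held 45 spans, 26 above 0 and 19 below, with a median of 0.210. After Map7d2 came a 60-nt exon of Arpp21 at -0.566, although Arpp21 encodes a cAMP-regulated phosphoprotein and not a cytoskeletal protein. Map4, a microtubule-associated protein gene, and Tpm1, a tropomyosin gene, were both at -0.524. Kinase and phosphatase genes held 39 spans, 21 above 0 and 18 below, with a median of 0.196, led by Lmtk3 and the 21-nt exon of Ptprz1 at -0.487.

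Chromatin and transcription genes held 30 spans, 16 above 0 and 14 below, with a median absolute ΔI of 0.215. The chromatin remodelling subunit gene Smarce1 had a 105-nt coding exon in a span at -0.575 and a 44-nt coding exon in a span at -0.450. Kdm1a, a histone demethylase gene, had a 12-nt coding exon at 0.435 with 8 motifs downstream. Genes of RNA-binding proteins held 13 spans, 7 above 0 and 6 below, and the smallest median, 0.149. Rbfox2, itself the gene of a splicing factor, had spans at 0.309, -0.102 and -0.160. Luc7l was at 0.258, Elavl2 at 0.203 with a 39-nt exon and at -0.125 in another span, and Celf1 at -0.182. A span of Nova1 was at -0.149 in Nova2-/- cortex. In Nova1-/- midbrain and hindbrain, where the gene itself is disrupted, that span was at -0.803 and was not called, and it has no value in Nova1-/- cortex.

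The cassette spans were then followed in the mice that lack NOVA1, in cortex and in the midbrain with the hindbrain. The Nova1-/- comparisons use other samples than the Nova2-/- comparison. The labels give the same mouse numbers to both Nova1 regions, so these may come from the same mice and are not independent of each other. The median absolute ΔI was 0.0353 in Nova1-/- cortex over 641 spans and 0.0348 over 642 spans in Nova1-/- midbrain and hindbrain, beside 0.210 in Nova2-/- cortex. The absolute ΔI was smaller than in Nova2-/- cortex for 634 of the 641 spans in Nova1-/- cortex and for 624 of the 642 in Nova1-/- midbrain and hindbrain. Listing on the size of ΔI in Nova2-/- cortex pushes both counts up. All 1991 events of the table passed the limits in Nova2-/- cortex by construction.

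With any event at an absolute ΔI of at least 0.1 and an FDR below 0.1, 4 of 641 cassette spans (0.624%) were called in Nova1-/- cortex, against 1.02% of the spans of all events. Counted by event this was 5 cassette events (0.531%) against 0.907% of all events. All 4 spans moved in the direction opposite to Nova2-/- cortex. Rnf111, a ubiquitin ligase gene, had 0.191 in Nova2-/- cortex and -0.252 in Nova1-/- cortex. Luc7l, a splicing factor gene, had 0.258 and -0.179, Cnot2, a subunit gene of the CCR4-NOT deadenylase, 0.132 and -0.146, and Rbm39, an RNA-binding protein gene, 0.123 and -0.101. All 4 were also below 0 in Nova1-/- midbrain and hindbrain, at -0.0913, -0.153, -0.140 and -0.0911, and Luc7l and Cnot2 were called there as well, in samples that may be from the same mice.

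In Nova1-/- midbrain and hindbrain 43 of 642 cassette spans (6.70%) were called, close to the 6.59% of the spans of all events. Of the 43, Neo1 (-0.0854), Clasp1 (-0.0840) and Huwe1 (-0.0823) had a mean ΔI under 0.1 in size. Counted by event 63 cassette events were called, against 5.98% of all events. The calls lay in 40 genes. In 32 of the 43 spans the direction was the same as in Nova2-/- cortex, with 13 losing and 19 gaining inclusion, and in 11 it was opposite. The absolute ΔI was smaller than in Nova2-/- cortex in 32 of the 43. The largest call was opposite in direction, a 74-nt coding exon of the kinase gene Cdkl3 at 0.325 against -0.280 in Nova2-/- cortex. Kdm3b, a histone demethylase gene, was likewise at 0.277 against -0.210, and Atxn2, an RNA-binding protein gene, at 0.179 against -0.118. Calls in the same direction included the 44-nt exon of Smarce1 at -0.232 against -0.450, Zfp780b at -0.222 against -0.338, Bptf at 0.194 against 0.259, Kmt2e at -0.193 against -0.495 and Sphkap at 0.181 against 0.255. Kcnip1, which encodes a subunit of potassium channels, was larger in midbrain and hindbrain, at 0.199 against 0.119.

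Across the cassette spans, ΔI in Nova2-/- cortex and in Nova1-/- cortex had a Pearson r of -0.0662 (Spearman coefficient -0.0497, 641 spans). With Nova1-/- midbrain and hindbrain r was 0.211 (Spearman coefficient 0.239, 642 spans). Spans of the same gene are not independent points, and all points of one axis come from the same libraries, so no p is given. The share of spans with the same sign rose with the size of the change in Nova2-/- cortex when the midbrain and hindbrain were compared. It was 48.5% for an absolute ΔI from 0.1 to 0.2, 55.3% from 0.2 to 0.3, 65.2% from 0.3 to 0.5 and 82.5% (47 of 57 spans) from 0.5 upwards. In Nova1-/- cortex the corresponding shares were 41.2%, 42.5%, 57.9% and 56.1%. The 57 spans in the highest class had a median absolute ΔI of 0.0323 in Nova1-/- midbrain and hindbrain and 0.0282 in Nova1-/- cortex, so the shared direction came with small values.

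**Figure D2:**
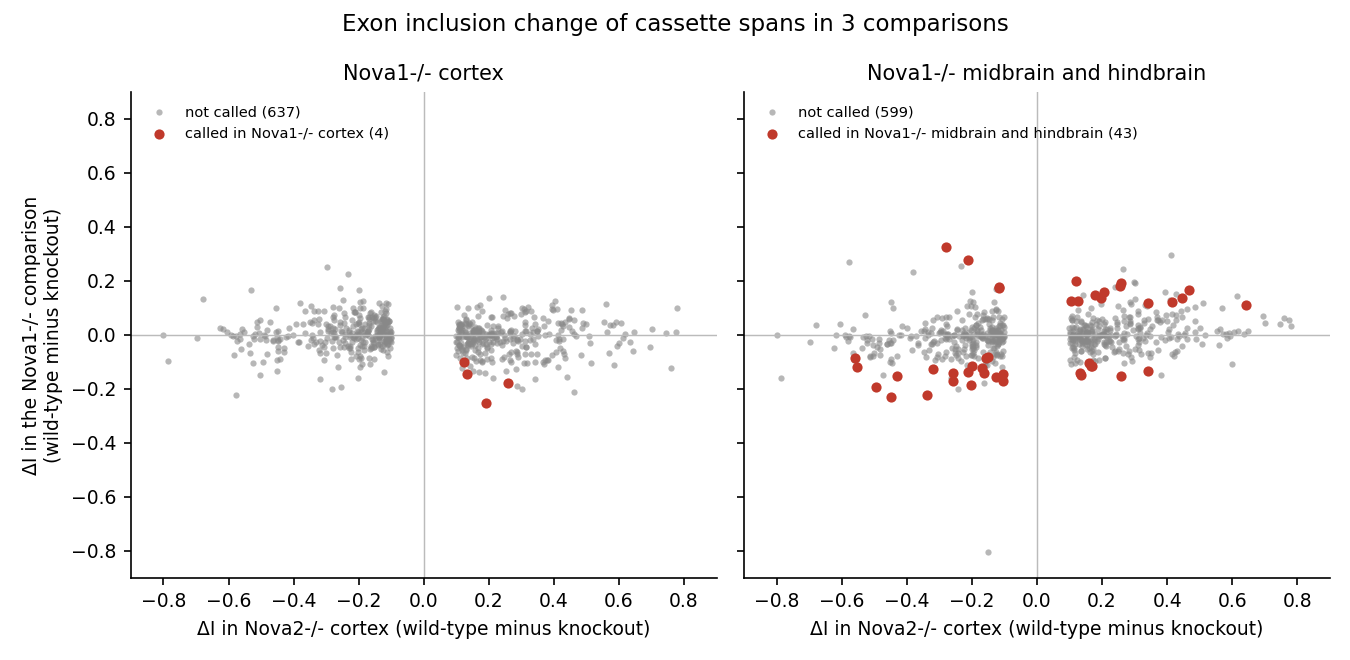
ΔI of each cassette span in Nova2-/- cortex (x axis) against its ΔI in Nova1-/- cortex (left, y axis) and in Nova1-/- midbrain and hindbrain (right, y axis), all as wild-type minus knockout. Red points are the 4 and 43 spans called in the Nova1-/- comparison, and the empty band around 0 on the x axis is the listing limit of 0.1. The 4 red points on the left all lie below 0 on the y axis and above 0 on the x axis.

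The exon itself could be placed in the genome for 460 exons of 361 genes, from 620 of the 941 events and 440 of the 642 spans. The other 321 events were counted by span only. The placed exons that lost inclusion were shorter than those that gained it, with median lengths of 75 nt (quartiles 42 and 114, 232 exons) and 104.5 nt (quartiles 63 and 151.5, 228 exons). The 8732 other internal exons of the same genes had a median of 121 nt. These are all internal exons of protein-coding transcripts except the placed ones, whether alternative or constitutive. Length, frame and splice sites were thus not compared with those of other cassette exons. Exons of at most 30 nt made up 13.8% of the exons that lost inclusion (32 exons), 6.58% of those that gained it (15 exons) and 2.61% of the other exons. ΔI was above 0 for 68.1% of the 47 exons of at most 30 nt, 57 of the 95 exons of 31 to 60 nt, 51.7% of the 176 exons of 61 to 120 nt, 37.4% of the 115 exons of 121 to 240 nt and 33.3% of the 27 longer ones.

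The shortest placed exon was a 9-nt exon of Ptprd, a receptor phosphatase gene of the LAR family, with a ΔI of -0.448 in Nova2-/- cortex. Exons of 12 nt included those of Kdm1a (0.435), Robo2 (-0.430) and Cacna1b, the gene of the N-type calcium channel pore (0.442). Adgrl2, a latrophilin gene, had a 27-nt exon at 0.585 in Nova2-/- cortex, -0.112 in Nova1-/- cortex and -0.0115 in Nova1-/- midbrain and hindbrain. A 24-nt exon of Synj1, the gene of the vesicle-recycling phosphatase synaptojanin, had values of 0.562, 0.00902 and 0.0205. A 21-nt exon of the potassium channel gene Kcnh7 had 0.511, -0.0285 and 0.120. Among the microexons that gained inclusion, the 21-nt exon of Slc8a1, the sodium-calcium exchanger gene, had -0.521, 0.0595 and 0.0209. The 21-nt exon of the receptor phosphatase gene Ptprz1 had -0.487, -0.00335 and -0.0163, and the 27-nt exon of Ppp3cb had -0.449, -0.00581 and 0.00190. None of these 6 exons was called in a Nova1-/- comparison, whereas the 18-nt exon of Ptprf, at 0.445 in Nova2-/- cortex, was called at 0.136 in Nova1-/- midbrain and hindbrain.

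**Figure D3:**
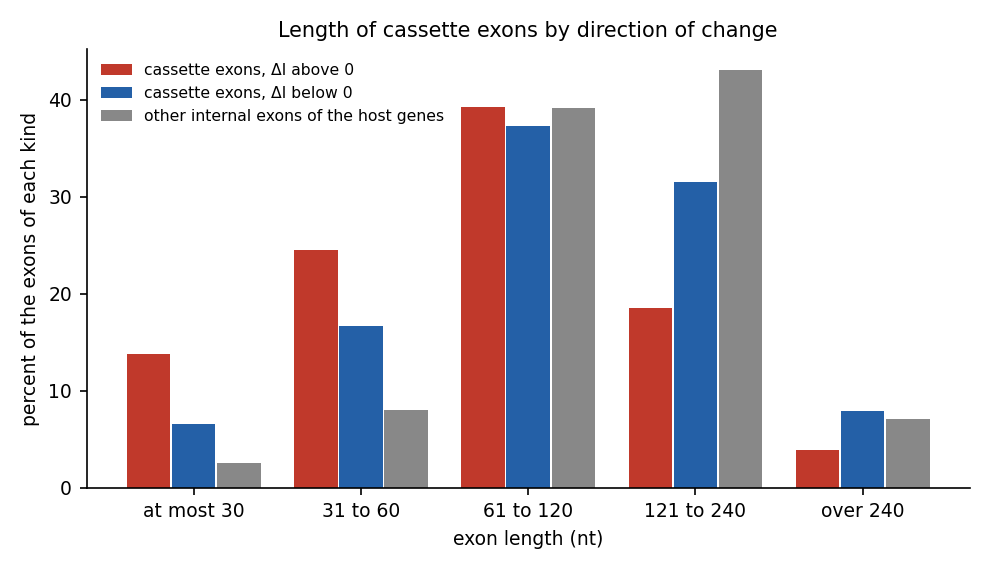
Share of exons (y axis, percent) in 5 classes of exon length (x axis, nt) for the 232 placed cassette exons with ΔI above 0, the 228 with ΔI below 0 and the 8732 other internal exons of the same genes. The classes up to 60 nt hold a larger share of the cassette exons than of the other exons, most of all for ΔI above 0.

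A length that is a multiple of 3 was found for 71.1% of the placed cassette exons (327 of 460), against 42.9% of the other internal exons of the host genes. It was 76.7% where inclusion was lost and 65.4% where it was gained. Of the 460 exons, 333 were coding in the GENCODE annotation of mm9, and 82.3% of these had a length that is a multiple of 3. A further 56 were not annotated, 32 were partly coding, 21 were untranslated and 18 occurred in non-coding transcripts only. The coding exons were evenly divided, with 166 above 0 and 167 below. In 47 cases an annotated transcript that contains the exon is labelled as a target of nonsense-mediated decay, 23 of them above 0 and 24 below, and 26 of the 47 had a length that is a multiple of 3.

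The splice sites of the placed exons scored below those of the other internal exons of the host genes. The score is the summed log2 ratio of base frequencies to an even base composition, with frequencies taken from all other internal exons. The median donor score was 7.05 for exons that lost inclusion (quartiles 5.22 and 8.81), 7.77 for those that gained it (6.30 and 9.10) and 8.13 for the other exons (6.24 and 9.66). The median acceptor scores were 8.42, 8.25 and 9.40. The quartile ranges of the 3 groups overlapped for both sites.

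The NOVA motif was counted on the transcript strand only, overlapping matches included, in the exon and in 200 nt of intron on either side. At least 1 match stood in 95.5% of the upstream windows and 94.4% of the downstream windows of all other internal exons, so presence alone carries little and densities are given. Exons that lost inclusion in Nova2-/- cortex had 2.47 motifs per 100 nt downstream and 1.67 upstream. Exons that gained inclusion had 1.77 downstream and 2.16 upstream. The other internal exons of the host genes had 1.61 downstream and 1.66 upstream. Inside the exon the densities were 1.73, 2.17 and 1.72. These are all motifs over the summed exon length, so long exons weigh more, whereas the flank densities are means over exons. Listing required a motif under a CLIP cluster somewhere at the event, which raises the overall density, but did not fix the side on which the motifs stood.

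The side of the motifs followed the direction more closely from an absolute ΔI of 0.3 upwards than below it, without a steady rise over the classes. For an absolute ΔI of at least 0.5, exons that lost inclusion had 3.69 motifs per 100 nt downstream and 1.52 upstream (23 exons), and exons that gained inclusion had 3.55 upstream and 2.03 downstream (19 exons). From 0.3 to 0.5 the downstream densities of lost and gained exons were 3.23 and 1.47, and the upstream densities 1.76 and 2.48, for 50 and 42 exons. From 0.2 to 0.3 the downstream densities were 2.18 and 2.05, and the upstream densities 1.75 and 1.88, for 59 and 53 exons. In that class exons that gained inclusion thus had more motifs downstream than upstream. From 0.1 to 0.2 the downstream densities were 1.98 and 1.70, and the upstream densities 1.61 and 1.94, for 100 and 114 exons. Counted by exon, ΔI was above 0 in 67 of the 92 exons (72.8%) with at least 6 motifs downstream and fewer upstream. It was above 0 in 22 of the 73 exons (30.1%) with at least 6 motifs upstream and fewer downstream, and in 133 of the 273 exons (48.7%) with fewer than 6 on either side. Cacna1b, with 12 motifs downstream of its 12-nt exon, and Cadm3, an adhesion molecule gene with 17 downstream of a 102-nt exon, were at 0.442 and 0.426. Dlg3 went the other way, since its 42-nt exon had 13 motifs downstream and a ΔI of -0.265.

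The sign of ΔI in Nova1-/- midbrain and hindbrain, which the listing did not use, was also above 0 in 59 of the 92 exons (64.1%) with at least 6 motifs downstream and fewer upstream, and in 24 of the 73 (32.9%) with the motifs upstream. It was above 0 in 111 of the 273 exons (40.7%) with fewer than 6 motifs on either side. In Nova1-/- cortex the numbers were 47 of 92 (51.1%), 28 of 73 (38.4%) and 144 of 273 (52.7%). These counts have no replicate check, and the median absolute ΔI of the first 2 groups was 0.0316 and 0.0367 in Nova1-/- midbrain and hindbrain.

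In bins of 20 nt, the place of the highest density differed between the flanks. Downstream of exons that lost inclusion it reached 3.10 motifs per 100 nt from 40 to 60 nt after the exon and averaged 2.05 from 200 to 300 nt. Upstream of exons that gained inclusion it reached 3.07 from 20 to 40 nt before the exon and averaged 1.80 from 200 to 300 nt. Upstream of exons that lost inclusion the highest bin, at 2.004, lay from 100 to 120 nt before the exon. Downstream of exons that gained it the highest value, 1.89, was shared by the bins within 20 nt and from 140 to 160 nt after the exon. The highest values around the other exons were 1.93 before and 1.67 after the exon, both from 20 to 40 nt away. Before the exon this is the same bin as in the exons that gained inclusion, so their upstream peak differed in height and not in place. From 200 to 300 nt before the other exons the density averaged 1.64. A motif with the same letters in another order, CACC or CACT or, when T is its first letter, TACC or TACT, which can overlap the NOVA motif, was less uneven. Its densities upstream were 1.47, 1.43 and 1.39 and downstream 1.61, 1.40 and 1.39 for exons that lost inclusion, exons that gained it and other exons. GCATG, the element bound by RBFOX splicing factors, was present downstream of 69 exons that lost inclusion (29.7%) and 44 that gained it (19.3%), against 20.8% of the other exons. Upstream it was present at 20.3%, 18.4% and 17.9%.

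**Figure D4:**
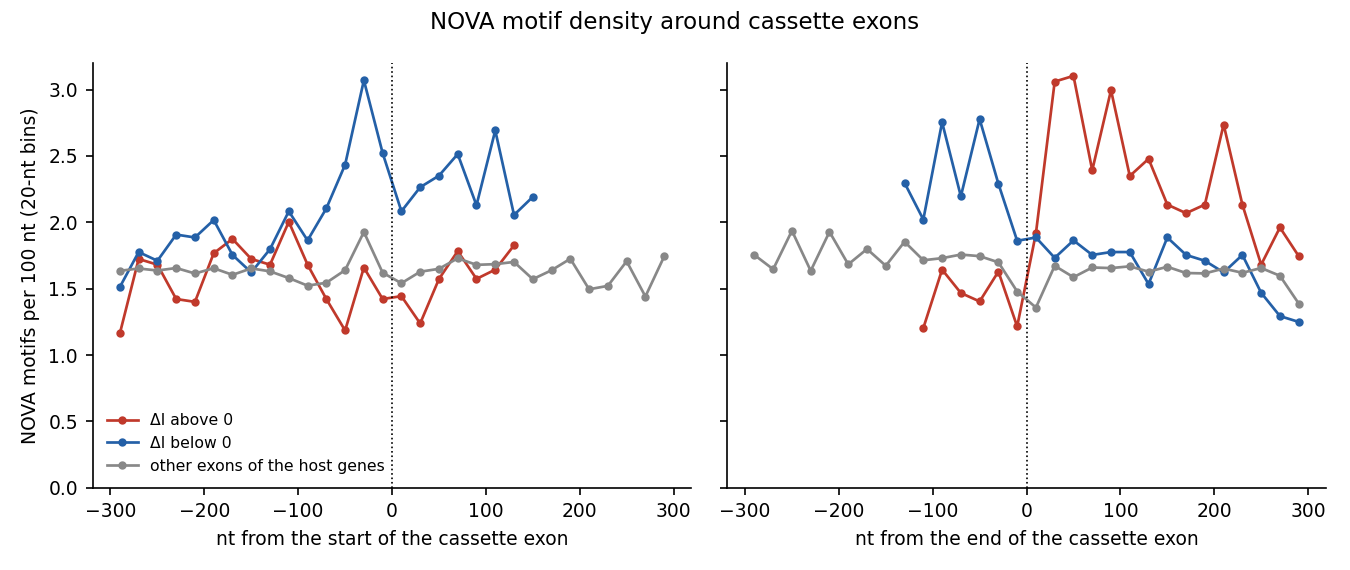
NOVA motifs per 100 nt (y axis) in bins of 20 nt around the start (left) and the end (right) of cassette exons with ΔI above 0 (red) or below 0 (blue) and of the other internal exons of the host genes (grey), with distance in nt on the x axis and bins with fewer than 50 exons left out. The red line rises to 3.10 after the exon end, and the blue line to 3.07 before the exon start.

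The mRNA level of the genes that hold the cassette exons was compared to ask whether changes in splicing came with changes in abundance. Of the 464 host symbols 456 were found in the abundance table, 22 of them under a synonym, and all 456 were tested. In Nova2-/- cortex 3 host genes passed an FDR of 0.05 and a log2 fold change of 1 in size by edgeR's quasi-likelihood test, 2 higher and 1 lower, against 0.261% of the 15691 genes tested (0.204% higher and 0.0574% lower). At an FDR of 0.05 with any fold change 21 host genes passed, 12 higher and 9 lower, which is 4.61% of the hosts beside 1.06% of all genes (0.695% higher and 0.363% lower). This count rests on single samples, since it was between 3 and 9 without any of the other samples in turn and 87 without wild-type replicate 3. Host genes had a median level of 142 CPM against 22.3 CPM for all genes tested, and a more highly expressed gene is measured more precisely. The median absolute log2 fold change was 0.12 for the hosts and 0.16 for all genes. The summed meningeal markers given above were higher and the summed neuron markers lower in the same samples, although no neuron marker passed the FDR limit. Their part in these calls was not tested. In bulk tissue, fewer cells of a type and less RNA per cell cannot be told apart.

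Stx2, a gene of the syntaxin family of membrane fusion proteins, was at 16.9, 17.2 and 16.0 CPM in wild-type and 46.0, 42.8 and 38.8 CPM in Nova2-/- cortex. The groups did not overlap, and the log2 fold change was 1.35 ± 0.10 (SE, edgeR quasi-likelihood, adjusted p = 0.00329), while its cassette span had a ΔI of 0.267. Scn9a, a sodium channel gene, was at 47.7, 53.0 and 43.6 CPM in wild-type and 106, 105 and 90.0 CPM in Nova2-/- cortex. Its log2 fold change was 1.06 ± 0.10 (SE, edgeR adjusted p = 0.00578), again without overlap, and its span had a ΔI of 0.569. Lmtk3 was at 64.7, 77.2 and 77.4 CPM in wild-type and 29.2, 29.4 and 38.2 CPM in Nova2-/- cortex. It fell by 1.18 on the log2 scale (SE 0.13, edgeR adjusted p = 0.0114), and it is also the gene with the largest gain of inclusion, at the exon printed above. The fold change of Lmtk3 missed the FDR limit without Nova2-/- replicate 1 (adjusted p = 0.0933) and without replicate 2 (0.0695). Scn9a missed it without the same replicates (0.0684 and 0.0518), and its log2 fold change was 0.997 without wild-type replicate 3.

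**Figure D5:**
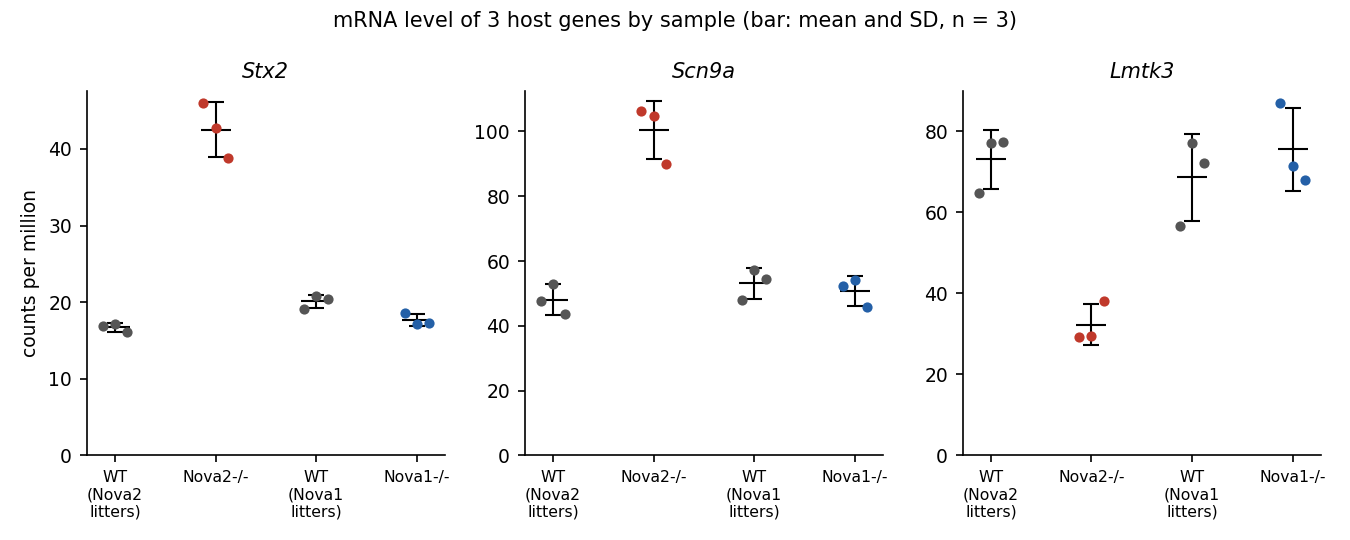
Level of Stx2, Scn9a and Lmtk3 (y axis, CPM, from 0) in each of 3 mice of the 4 cortex groups (x axis), with bars for the mean and SD. In Nova2-/- cortex Stx2 and Scn9a lie above and Lmtk3 below all other samples shown.

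The next largest changes among the host genes past an FDR of 0.05 in Nova2-/- cortex were, upwards on the log2 scale, 0.89 in Ccp110, a centriole protein gene, 0.83 in C2cd5 and 0.81 in Tln1, the gene of talin. Rab12, a vesicle traffic GTPase gene, fell by 0.90, Cacna2d3, a calcium channel subunit gene, by 0.77 and Dlg3 by 0.63. These 6 genes were named after their values were seen. Genes grouped by the direction and frame of their exon had median log2 fold changes between -0.02 and 0.03. The median was 0.02 for 149 genes with an exon of a multiple of 3 that lost inclusion and 0.03 for 135 that gained it. For exons of other lengths it was -0.02 over 46 genes and -0.01 over 72 genes. In Nova1-/- cortex Nova1 itself was the only host gene that passed the test, against 0.0126% of 15901 genes (0.00629% in each direction). There 25 of the 456 hosts (5.48%) had an unadjusted p below 0.05, beside 7.44% of all genes. In Nova2-/- cortex 122 hosts (26.8%) had one, beside 19.2% of all genes.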

How the data were processed

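RNA from 18 samples was made into ribosomal RNA-depleted libraries. The authors aligned reads to mm10 with OLego and converted coordinates to mm9. The authors deposited expected counts per gene symbol for 12 cortex samples, without normalization, beside their own edgeR fold changes and FDRs, which were not used. A further table, as deposited, holds ΔI, used here as a score, and its FDR, an adjusted p-value, for each event and comparison. Gene counts of midbrain and hindbrain were not used here.

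Members and gene lists were chosen with earlier results of these data known. The exons were placed in mm9 (NCBIM37, GENCODE vM1) from distances in the event name, where GT or GC and AG splice sites fitted (392 events), or from a unique annotated exon between the flanking exons (228 events). Span starts count from 0, since 89.9% match an annotated exon start after adding 1, against 0.623% as given. Printed coordinates are 1-based. An exon can lie in several events, and 24 of 459 exons had a flanking intron under 200 nt, whose window reaches the next exon. The planned measure of frame by span was taken over placed exons. Splice-site scores used 3 exon and 6 intron bases at donors and 20 intron and 3 exon bases at acceptors. The exons named for their number of motifs or for opposite directions within a gene were chosen after their values were seen.

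Counts were rounded and fitted for each knockout against its littermates with edgeR 4.0.16 (R 4.3.3; TMM, filterByExpr, quasi-likelihood, Benjamini-Hochberg adjustment over all genes). CPM uses TMM-scaled library sizes. Host symbols were matched through RefSeq synonyms (GRCm38.p6). Both the fit and the motif counts were tested on simulated data. P-values of this abundance fit measure the spread between 3 mice in a group. The FDR of ΔI was taken as given beside pooled values, and whether it covers the spread between mice could not be checked. Alternatives were DESeq2 1.42.0, upper-quartile scaling, other filters and thresholds, each sample left out and a replicate block. Tables used Python 3.11.15, pandas 2.3.3 and matplotlib 3.10.9.

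Named spans are those of genes the study names beside an RNA-seq splicing result, the 10 largest in each direction, those called in Nova1-/- cortex, the 10 largest calls in midbrain and hindbrain, the 4 largest of each list, the 6 largest exons of at most 30 nt, and host genes past both abundance thresholds. One of the spans so named is not reported here.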

Additional observations from a re-analysis of the deposited data

Results flagged for a closer look

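Only the 4 host genes past both abundance thresholds in either knockout were looked at for a difference between the knockouts. All 12 cortex samples were fitted with an interaction term, a fit added after the data had been seen (edgeR quasi-likelihood, Nova2-/- change minus Nova1-/- change, log2). The abundance change of all 4 differed. They had been picked for a change in either knockout on these same samples, which favours such a difference. Stx2 differed by 1.52 (SE 0.13, adjusted p = 7.24e-05), Scn9a by 1.12 (SE 0.14, adjusted p = 0.00193) and Lmtk3 by -1.33 (SE 0.19, adjusted p = 0.0039). The difference for Nova1, 9.15 (adjusted p = 2.24e-07), is that of the gene disrupted in Nova1-/- mice.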

How the results depend on the processing

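The results were recomputed with other settings, which gave 58 values. Of these, 46 stayed within 1.5 times the original count or motif difference or within the 95% interval of a share or correlation. Such intervals treat spans or exons as independent, which those of the same gene are not. Leaving out the Nova1 span could not move the correlation with Nova1-/- cortex, where it has no value. Fold changes of named genes gave 42 further values, of which 37 stayed past both thresholds and 5 did not. At any fold change the number of host genes past the FDR limit in Nova2-/- cortex was 21 instead of 3, and at any fold change by DESeq2 it was 55. Leaving out 1 sample at a time gave 1 to 3 host genes past both thresholds in Nova2-/- cortex and 1 in Nova1-/- cortex. The count fell to 1 without Nova2-/- replicate 1 or 2. Without the filter on fold change these fits gave 3 to 87 host genes, with 87 without wild-type replicate 3. With at least 10 counts in every sample no host gene (0) passed in Nova1-/- cortex, because Nova1 itself was filtered out. Same-numbered samples of the Nova2 litters deviated from their group means with correlations of 0.113, 0.00658 and 0.168. Differently numbered samples had correlations from -0.202 to 0.121. These values do not settle whether the samples were paired, and the main fit used no pairing. The replicate block gave 3 host genes and 26 at any fold change.

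With an absolute ΔI of at least 0.2, 1 cassette span was called in Nova1-/- cortex and 6 in Nova1-/- midbrain and hindbrain, and at 0.1 with no limit on FDR the counts were 90 and 104. For exons with an absolute ΔI of at least 0.3, the downstream motif difference was 1.72 in place of 0.705 per 100 nt, and the difference inside and upstream was -1.08 in place of -0.606. In the same exons 76.9% had a length that is a multiple of 3, and among coding exons, an alternative added after seeing the data, 82.3%. ΔI carries no read counts, so its depth is unknown. The exons of 202 spans were not placed.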
